A study of Mus musculus with 6 samples.

Results

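The potassium channel genes of the mouse brainstem were read from RNA-Seq libraries of P21 *Hoxa5* cKO and *Hoxa5* control mice. The set took every assembled locus that carries exactly 1 gene name beginning with Kcn, apart from the long noncoding RNA *Kcnq1ot1*, and the locus with the most fragments where a name lies on several loci. This gave 93 genes among the 34632 loci of the table. *Hoxa5* cKO pups were *Hoxa5*flox/flox;CMV-CreERT2+/-, in which tamoxifen switches on a Cre recombinase driven by the broadly active CMV promoter. *Hoxa5* control pups were *Hoxa5*flox/flox;CMV-CreERT2-/- littermates, with the same floxed alleles and no Cre. Both genotypes received tamoxifen from P1 to P4 and were kept on a mixed background, principally 129/Sv with C57BL/6 and DBA/2. There were 3 libraries of each genotype, each from the pooled RNA of 3 brainstems, so that p-values measure the spread between pools and no value belongs to a single animal. Control pups carry no Cre, so that an effect of tamoxifen-activated Cre itself cannot be told apart from the loss of *Hoxa5*. The libraries are bulk tissue, in which fewer cells of a type and less RNA per cell cannot be told apart.

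Potassium channels let potassium leave the cell and thereby set the resting potential, end the action potential and space successive spikes. They fall into voltage-gated channels (*Kcna*, *Kcnb*, *Kcnc*, *Kcnd*, *Kcnh*, *Kcnq* and the electrically silent *Kcnf*, *Kcng*, *Kcns* and *Kcnv* subunits), inward rectifiers (*Kcnj*), leak channels with a pair of pore domains (*Kcnk*), and channels opened by calcium or sodium (*Kcnn*, *Kcnma1*, *Kcnt*). Auxiliary subunits (*Kcnab*, *Kcne*, *Kcnip*, *Kcnmb*) change their gating or their place in the membrane. In the brainstem, these channels serve the fast and precise firing of auditory neurons, the rhythm of respiratory neurons, the sensing of acid and the clearance of potassium by glia.

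The libraries held 12034613 to 13202707 fragments, and the potassium channel genes took 0.550% to 0.599% of the fragments of cKO libraries, against 0.567% to 0.572% in control libraries. *Hoxa5* shares its assembled locus with *Hoxa6* and 2700086A05Rik, and this locus did not follow the labels. It had 279, 57 and 63 fragments in the libraries labelled cKO (replicates 1, 2 and 3), against 202, 337 and 77 fragments in those labelled control (edgeR log2 fold change -0.62, standard error 0.48, adjusted p = 0.893). cKO replicate 1 was thus as high as control replicates 1 and 2, and control replicate 3 nearly as low as cKO replicates 2 and 3, and every direction below rests on the labels. Some other transcripts parted by label. Of 6 granule neuron markers, 5 (*Neurod1*, *Cbln3*, *Gabra6*, *Fat2* and *Cdh15*) were lower in every library labelled cKO than in every library labelled control. This includes cKO replicate 1 and control replicate 3, and the same held for 6.54% of all loci tested. The list was chosen with earlier results of these data known, so this separation is no test of the labels. All 10 brainstem neuron markers were present, with a summed level of 1263 to 1466 CPM in cKO libraries, against 1246 to 1370 CPM in control libraries. Their log2 fold changes were all above 0, with a median of 0.13, and none was called. Transcripts of genes listed as cerebellar markers were also present, and these differed between genotypes. The paper treats some of them, such as *Gabra6*, *Cbln3* and *Slc1a6*, as candidate targets of HOXA5. It also cites reports of *Gabra6* in a subset of precerebellar nuclei besides cerebellar granule cells. The source of these transcripts in the tissue was not tested. The summed level of 6 granule neuron markers was 105 to 134 CPM in cKO libraries, against 281 to 540 CPM in control libraries, and 4 of the 6 were called lower by edgeR. For 6 Purkinje cell markers the summed level was 43.0 to 50.8 CPM in cKO libraries, against 94.8 to 165 CPM in control libraries, again with 4 called lower. The largest part of that sum was *Car8*. The Purkinje cell markers *Casq2* and *Skor2* overlapped between genotypes (log2 fold changes -0.24 and 0.08), as did the granule neuron marker *Barhl1* (-0.10). CPM are fragments scaled to the size of the library after TMM normalization. A gene was called where the p from edgeR's quasi-likelihood test, adjusted by Benjamini-Hochberg over all 21854 loci tested, was under 0.05.

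Levels between genes are given as FPKM, fragments divided by transcript length and library size, which Cuffdiff had also scaled between libraries. The sum over the 93 genes was 1006, 1019 and 1065 FPKM in cKO libraries, against 1045, 1036 and 1021 FPKM in control libraries. Means were 1030 ± 31.0 FPKM in cKO and 1034 ± 12.2 FPKM in control (SD, n = 3 each), and the genotypes overlapped. The 5 genes above 50 FPKM held 32.8% of the summed FPKM of the set, and 20 genes held 71.6%. A mean of at least 10 FPKM was reached by 29 genes and of at least 1 FPKM by 69, and 24 lay below 1 FPKM.

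Among the genes described here, the highest levels belonged to *Kcnab2* (77.3 FPKM over the 6 libraries), the cytoplasmic beta subunit that binds Kv1 channels, and to *Kcna1* (77.2 FPKM), the Kv1 alpha subunit mutated in human episodic ataxia. *Kcnj10*, the inward rectifier of astrocytes and oligodendrocytes, had 68.1 FPKM, and *Kcna2*, the usual partner of *Kcna1* in axons, had 55.4 FPKM. The ranges of these genes over the 6 libraries overlapped from one gene to the next, so that the order of neighbours is not settled. The range of *Kcna2* (53.2 to 59.1 FPKM) lay wholly below those of *Kcna1* (71.5 to 82.9 FPKM) and *Kcnab2* (70.2 to 81.6 FPKM). Next came *Kcnk1* (43.5 FPKM), *Kcnk9* (41.7 FPKM) and *Kcnc1* (40.3 FPKM), whose ranges again overlapped from one to the next. In the whole order only 3 of 92 neighbouring pairs were separated by their ranges, among them *Kcna2* above *Kcnk1* and *Kcns2* above *Kcnd1*. The order depends little on how length was taken, since ranking by CPM per kilobase of all exons gave a Spearman correlation of 0.984 across the 93 genes, which are not independent replicates. *Kcnb2* (rank 36 by FPKM, 52 by CPM per kilobase), *Kcnh7* (30 and 45) and *Kcnj3* (18 and 30), which have long summed exons, were among 7 genes that moved by more than 10 places.

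**Figure D1:**
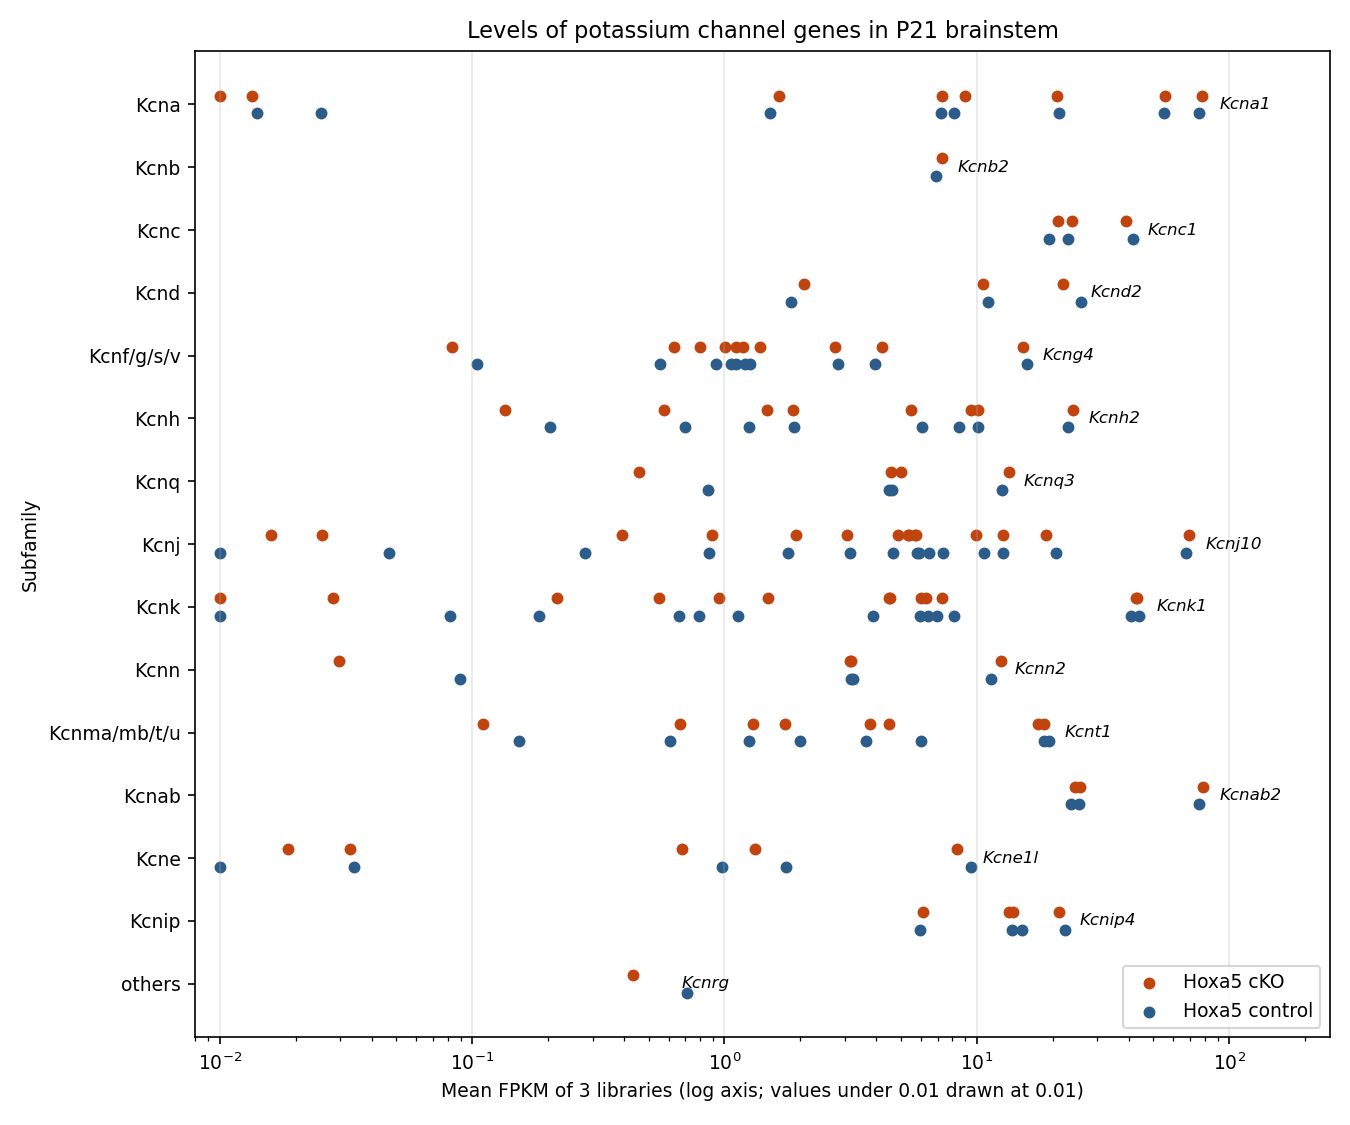
Mean FPKM of each of the 90 potassium channel genes drawn (x axis, log scale) by subfamily (y axis), with orange points for the 3 *Hoxa5* cKO libraries above blue points for the 3 *Hoxa5* control libraries, and the highest gene drawn in each subfamily named. The orange and blue points of a gene lie close together above 10 FPKM, 4 genes drawn lie above 50 FPKM, and means under 0.01 FPKM are drawn at 0.01.

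None of the 78 potassium channel genes tested was called by edgeR in either direction, beside 0.531% of all loci tested (0.503% lower and 0.0275% higher in cKO). DESeq2 also called 0 of them, beside 0.537% of the loci it adjusted, and limma on log2(FPKM + 1) called 0, beside 0 of all 19282 loci it tested. Over all alternatives edgeR called between 0 and 2 of them, *Kcnj12* and, with no filter on low counts, also *Kcnk10*. At an unadjusted p under 0.05 edgeR placed 6 genes lower (7.69%, beside 4.03% of all loci) and 2 genes higher in cKO (2.56%, beside 2.91%). DESeq2, which tested 92 of the genes, placed 4 lower (4.35%, beside 1.84% of all loci) and 1 higher (1.09%, beside 0.779%). All 3 cKO libraries lay below all 3 control libraries for 11 genes (14.1%, beside 6.54% of all loci) and above them for 4 genes (5.13%, beside 5.61%). Both the 6 and the 11 lower genes include the locus named *Kcnq1*, which is antisense to that gene. With fragments summed over all loci of a name, 5 genes were lower at an unadjusted edgeR p under 0.05 (6.41%, beside 4.02% of all loci). The balance of directions depended on single libraries. Without cKO replicate 1, 4 genes were lower (5.00%, beside 4.93% of all loci) and 9 higher (11.2%, beside 4.46%) at an unadjusted edgeR p under 0.05. With control replicate 3 left out as well, 4 were lower (5.00%, beside 5.16%) and 10 higher (12.5%, beside 4.94%). Without cKO replicate 3, 9 were lower (11.2%, beside 4.12%) and 1 higher (1.25%, beside 2.53%), and without control replicate 1, 4 were lower (5.06%, beside 2.71%) and 0 higher (beside 1.99%). The median log2 fold change was -0.01, beside 0.00 for all loci, with 40 genes below 0 and 38 above.

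The differences were small for the abundant channels. Among the 29 genes with at least 10 FPKM, log2 fold changes ran between -0.22 and 0.18, with a median standard error of 0.06, and the 95% intervals reached at most -0.36 and 0.35. For the 5 most abundant genes the intervals lay between -0.15 and 0.24. Precision was lower for rare transcripts, with a median standard error of 0.25 for the 10 genes tested below 1 FPKM. Of the 78 genes, 63 lay within 0.2 of 0 on the log2 scale, and 7 were at or beyond 0.3. A p that misses the threshold does not show that the genotypes were alike, and the intervals give the size of difference that remains possible.

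**Figure D2:**
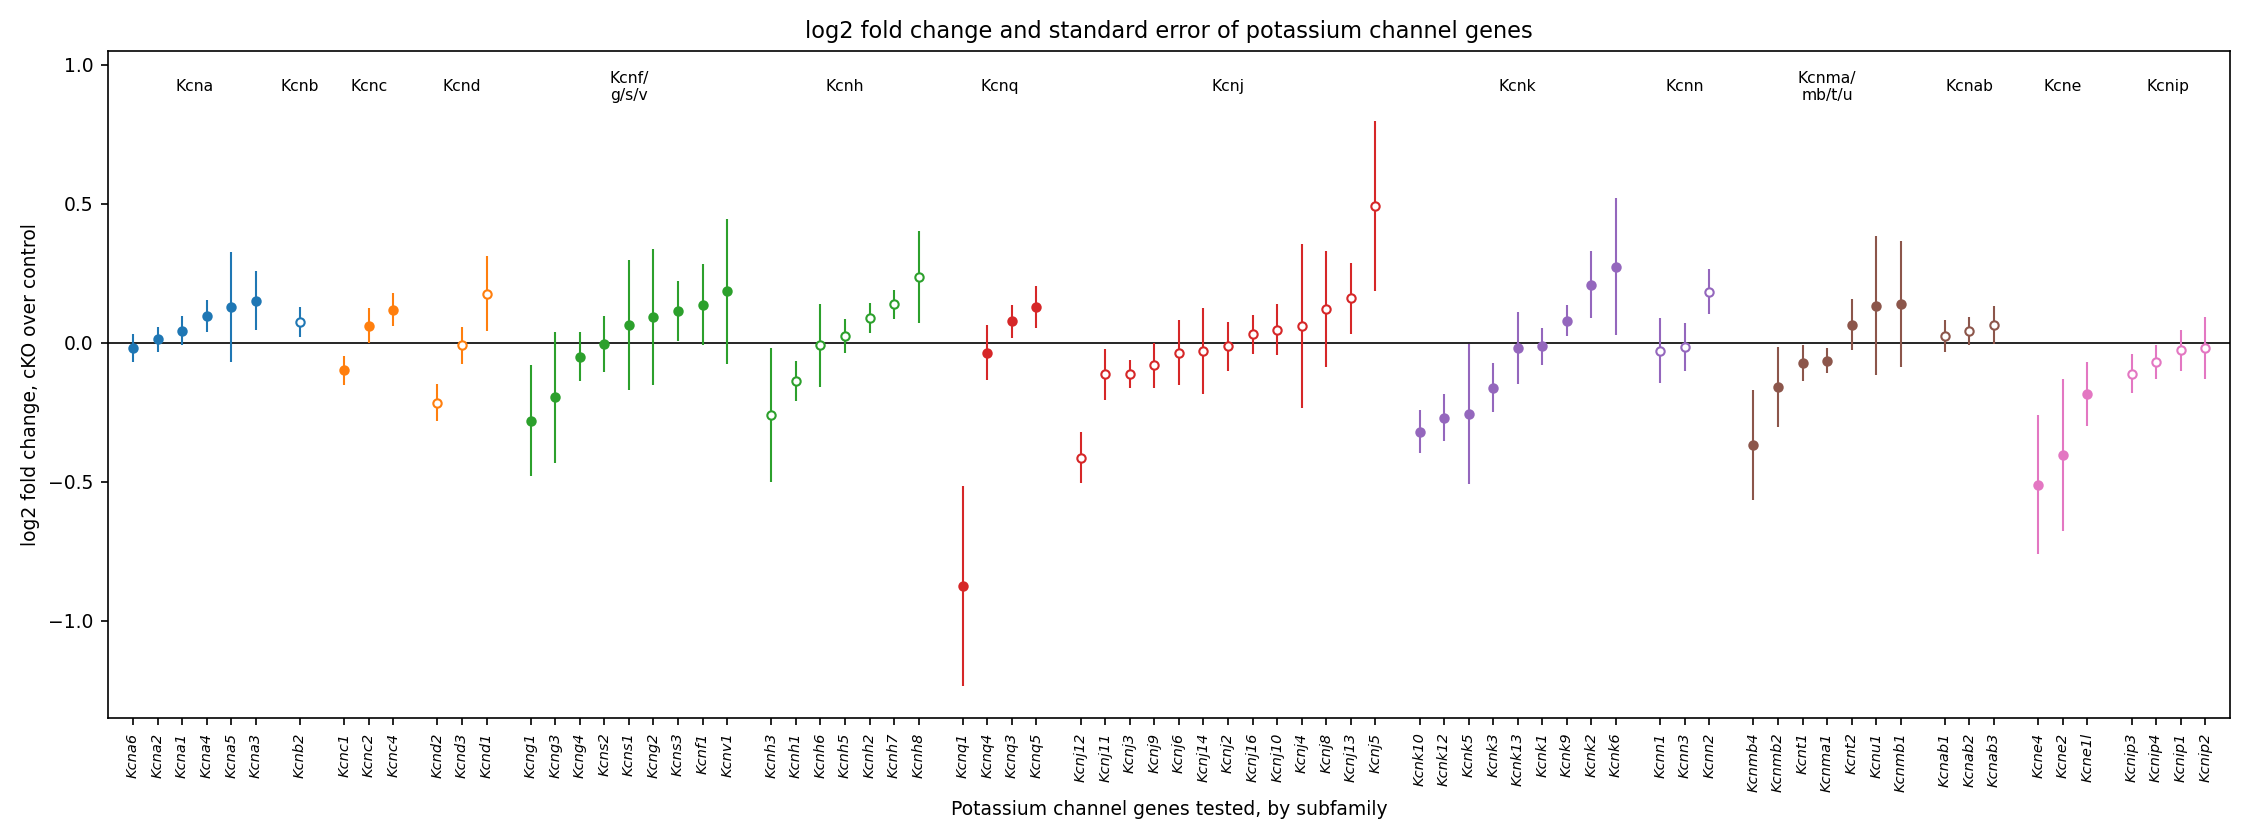
edgeR log2 fold change, cKO over control (y axis), of 75 of the potassium channel genes tested (x axis), grouped by subfamily and ordered within it by the fold change, with bars of 1 standard error. Filled and open points and colors alternate between subfamilies, 60 of 75 points lie within 0.2 of 0, and the widest bars belong to genes with few fragments.

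Of the Kv1 genes, which make the low-threshold current of axons, none of 6 tested had an unadjusted p under 0.05, and the subfamily had a median log2 fold change of 0.07. *Kcna1* had 80.5, 71.5 and 82.9 FPKM in cKO libraries, against 75.9, 79.0 and 73.6 FPKM in control libraries. *Kcna2* had 53.2, 54.6 and 59.1 FPKM in cKO libraries, against 54.6, 56.8 and 54.2 FPKM in control libraries. The genotypes overlapped for both, with log2 fold changes of 0.04 (95% interval -0.07 to 0.15) and 0.01 (-0.08 to 0.11). *Kcna4*, a Kv1 subunit with fast inactivation, and *Kcna3*, best known from lymphocytes, had log2 fold changes of 0.10 and 0.15 (edgeR adjusted p = 0.847 and 0.870). The beta subunits lay close to 0, with *Kcnab2* at 78.6 ± 3.24 FPKM in cKO and 76.1 ± 5.72 FPKM in control, and *Kcnab1* at 25.7 ± 1.14 FPKM in cKO and 25.4 ± 0.507 FPKM in control (SD, n = 3 each). *Kcnab3* had a log2 fold change of 0.06. *Kcna1*, *Kcna5* and *Kcna6* are neighbours on chromosome 6 and differed widely in level, with 77.2, 1.58 and 20.9 FPKM. The same held on chromosome 3, where *Kcna2* (55.4 FPKM) lies between *Kcna3* (8.55 FPKM) and *Kcna10* (0.0137 FPKM).

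The Kv3 genes open only at strong depolarization and allow high firing rates. Of these, *Kcnc1* had 39.1 ± 1.63 FPKM in cKO and 41.5 ± 0.830 FPKM in control (SD, n = 3 each). It had 164, 174 and 188 CPM in cKO libraries, against 192, 182 and 190 CPM in control libraries (log2 fold change -0.10, edgeR adjusted p = 0.788). The genotypes overlapped in cKO replicate 3. *Kcnc1* shares exon sequence with *Sergef* on the opposite strand, and whether fragments were assigned by strand is not given in the sources used here. *Kcnc4* had 65.8, 67.7 and 60.9 CPM in cKO libraries, against 58.2, 60.0 and 60.7 CPM in control libraries. This put every cKO library above every control library, by a margin of less than 1 CPM, with a log2 fold change of 0.12 (edgeR adjusted p = 0.748). *Kcnc2*, expressed in fast-spiking interneurons among others, had 23.8 ± 2.08 FPKM in cKO and 23.0 ± 1.27 FPKM in control (SD, n = 3 each). *Kcnb2*, a delayed rectifier of the Kv2 group, had a log2 fold change of 0.07.

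*Kcnd2*, the Kv4 channel of the dendritic A-type current, was 1 of the 4 genes with the smallest p. It had 97.2, 110 and 99.6 CPM in cKO libraries, against 132, 109 and 116 CPM in control libraries. The genotypes overlapped, since cKO replicate 2 lay above control replicate 2, and control replicate 1 was the highest. The log2 fold change was -0.22 (standard error 0.07, unadjusted p = 0.00546, adjusted p = 0.322 from edgeR). Without control replicate 1 it was -0.13 (unadjusted p = 0.0605, adjusted p = 1.00 from edgeR). *Kcnd3*, a second Kv4 channel, had a log2 fold change of -0.01, and *Kcnd1*, present at 1.95 FPKM, a log2 fold change of 0.18. All 4 Kv4-binding *Kcnip* genes, which encode calcium sensors, were below 0 by small amounts, between -0.11 for *Kcnip3* and -0.02 for *Kcnip2*, with no unadjusted p under 0.05. *Kcnip1* had 13.4 ± 0.400 FPKM in cKO and 13.8 ± 1.00 FPKM in control (SD, n = 3 each). *Kcnip4*, the most abundant of them, had 21.1 ± 1.00 FPKM in cKO and 22.2 ± 0.988 FPKM in control (SD, n = 3 each).

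The silent subunits of the *Kcnf*, *Kcng*, *Kcns* and *Kcnv* families form no channel alone and join Kv2 subunits. *Kcng4* stood apart within them, with 15.2 ± 1.93 FPKM in cKO and 15.7 ± 2.05 FPKM in control (SD, n = 3 each), while the next, *Kcns3*, had 4.08 FPKM over all libraries. None of the 9 tested had an unadjusted p under 0.05. *Kcng1* had the lowest fold change of them, with 3.00, 3.38 and 4.58 CPM in cKO libraries, against 3.60, 4.64 and 5.06 CPM in control libraries (log2 fold change -0.28), and *Kcnf1*, *Kcns3* and *Kcnv1* had log2 fold changes of 0.14, 0.11 and 0.18.

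Of 7 EAG, ERG and ELK channels of the *Kcnh* family tested, 2 lay higher in all cKO libraries than in all control libraries (beside 5.61% of all loci) and 1 lower (beside 6.54%). *Kcnh7*, an ERG channel, had 92.8, 99.1 and 102 CPM in cKO libraries, against 87.6, 90.8 and 89.1 CPM in control libraries. Every cKO library was above every control library, and the log2 fold change was 0.14 (standard error 0.05, unadjusted p = 0.0183, adjusted p = 0.564 from edgeR). *Kcnh2*, the ERG channel of cardiac repolarization and the most abundant of the family at 23.5 FPKM, had 84.4, 86.6 and 91.7 CPM in cKO libraries, against 83.9, 79.7 and 83.8 CPM in control libraries. It too did not overlap, with a log2 fold change of 0.09 (adjusted p = 0.848 from edgeR). *Kcnh1*, an EAG channel, was on the other side, with 31.1, 32.3 and 31.6 CPM in cKO libraries, against 37.6, 33.3 and 33.6 CPM in control libraries (log2 fold change -0.14, edgeR adjusted p = 0.786, and -0.081 without control replicate 1). *Kcnh5*, the second EAG channel, had a log2 fold change of 0.02. The rarer ELK genes *Kcnh8* and *Kcnh3* had log2 fold changes of 0.24 and -0.26 with standard errors of 0.17 and 0.24, and *Kcnh3* shares exon sequence with the more abundant *Mcrs1*.

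*Kcnq3*, a subunit of the M-current channel that muscarinic receptors close, had a log2 fold change of 0.08. *Kcnq3* had 13.4 ± 0.349 FPKM in cKO and 12.6 ± 0.134 FPKM in control (SD, n = 3 each). *Kcnq5*, which can join it, had a log2 fold change of 0.13 (adjusted p = 0.835 from edgeR). The locus that the naming rule took for *Kcnq1* is a single exon on the minus strand, opposite to the *Kcnq1* gene, and is therefore not its messenger RNA. It had 5, 19 and 13 fragments in cKO libraries, against 19, 27 and 22 fragments in control libraries. The largest cKO count equalled the smallest control count, but scaled to library size the genotypes did not overlap (log2 fold change -0.88, standard error 0.36, unadjusted p = 0.0269, adjusted p = 0.629 from edgeR, and -0.53 without cKO replicate 1). The locus on the sense strand held 14, 11 and 13 fragments in cKO libraries, against 10, 8 and 20 fragments in control libraries.

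The 3 *Kcne* genes tested, which encode single-span subunits of Kv channels, all had log2 fold changes below 0. *Kcne1l*, the most abundant at 8.92 FPKM, had 10.8, 11.1 and 9.24 CPM in cKO libraries, against 11.3, 13.0 and 11.2 CPM in control libraries. *Kcne4*, whose protein inhibits its partner channels, had 22, 19 and 22 fragments in cKO libraries, against 35, 27 and 28 fragments in control libraries. Neither overlapped between genotypes, and their log2 fold changes were -0.19 and -0.51 (edgeR adjusted p = 0.850 and 0.745). *Kcne2*, a subunit of the choroid plexus epithelium, had 2.59, 1.15 and 2.61 CPM in cKO libraries, against 2.46, 3.01 and 2.87 CPM in control libraries. It was low in cKO replicate 2, the cKO library with the lowest sum of 5 choroid plexus markers (503 CPM, against 638 and 650 CPM in the other cKO libraries and 396 to 547 CPM in control libraries). Most of that sum was *Ttr* (472 CPM), while *Folr1* was lowest there (2.99 CPM) and *Otx2* highest (8.29 CPM) of all libraries. Control replicate 1, with the lowest sum of all (396 CPM), had 2.46 CPM of *Kcne2*. The part of this tissue in the *Kcne2* value was not tested. Without cKO replicate 2 the log2 fold change of *Kcne2* was -0.096.

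*Kcnj12*, an inward rectifier of the strongly rectifying Kir2 group, had the smallest p of all potassium channel genes. It lies on chromosome 11 from 61022192 to 61073328 (mm10). It had 18.7, 22.1 and 21.0 CPM in cKO libraries, against 29.2, 28.8 and 24.6 CPM in control libraries, or 224, 288 and 266 fragments against 356, 353 and 326. All cKO libraries lay below all control libraries, with control replicate 3 the nearest to them. Means were 20.6 ± 1.74 CPM in cKO and 27.5 ± 2.50 CPM in control (SD, n = 3 each). On the log2 scale the change was -0.41 with a standard error of 0.09 (95% interval -0.61 to -0.22, unadjusted p = 2.83e-04 from edgeR). The adjusted p was 0.0512, just outside the threshold, and over the alternatives tried it ran from 0.0104 to 0.655. With 1 library left out, the log2 fold change ran from -0.35 to -0.49 and the adjusted p from edgeR from 0.0245 to 0.378. It was under the threshold only without control replicate 3 (-0.49, edgeR adjusted p = 0.0245), and was 0.118 without cKO replicate 1, the other library in which the *Hoxa5* locus goes against its label. *Kcnj2*, another Kir2 channel, had 28.0, 29.8 and 26.5 CPM in cKO libraries, against 28.8, 24.9 and 31.3 CPM in control libraries, which overlapped (log2 fold change -0.01).

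The G protein-gated rectifiers answer to inhibitory receptors. *Kcnj3*, their common subunit, had 92.7, 93.9 and 93.4 CPM in cKO libraries, against 105, 98.2 and 99.8 CPM in control libraries. The cKO libraries were close to each other and below all control libraries (log2 fold change -0.11, standard error 0.05, unadjusted p = 0.0368, adjusted p = 0.662 from edgeR). Its partners *Kcnj9* and *Kcnj6* overlapped between genotypes, with log2 fold changes of -0.08 and -0.04, and *Kcnj5*, a partner best known from the heart, had the highest fold change of the 78 genes at a very low level. *Kcnj5* had 16, 32 and 21 fragments in cKO libraries, against 13, 16 and 20 fragments in control libraries, which overlapped (log2 fold change 0.49, 95% interval -0.16 to 1.14).

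*Kcnj10*, the glial channel that takes up potassium around neurons, had 332, 363 and 477 CPM in cKO libraries, against 351, 383 and 400 CPM in control libraries. The genotypes overlapped, and cKO replicate 3 was the highest library, which gave *Kcnj10* the largest coefficient of variation (19.6%) of the 29 abundant genes over the cKO libraries. The summed level of 5 astrocyte markers was 4578 to 4893 CPM in cKO libraries, against 4575 to 4710 CPM in control libraries, also highest in cKO replicate 3. Most of that sum was *Slc1a2* (3714 CPM there). *Slc1a2* and *Aldh1l1* were highest in cKO replicate 3, *Aqp4* was lowest there (436 CPM), and *Gfap* and *Gja1* lay between. The sum of 6 oligodendrocyte markers was lowest in cKO replicate 3 (25257 CPM, against 27112 to 27946 CPM in control libraries). The part of either cell type in the *Kcnj10* value was not tested. *Kcnj16*, which joins *Kcnj10* in a channel sensitive to acid, had 12.7 ± 0.524 FPKM in cKO and 12.7 ± 1.24 FPKM in control (SD, n = 3 each). *Kcnj11*, the pore of the ATP-sensitive channel of neurons, had 16.6, 16.8 and 14.8 CPM in cKO libraries, against 17.4, 16.9 and 17.8 CPM in control libraries. These did not overlap, by a margin of less than 1 CPM, with a log2 fold change of -0.11 and an adjusted p of 0.897 from edgeR. Its vascular counterpart *Kcnj8* had 1.93 ± 0.102 FPKM in cKO and 1.79 ± 0.543 FPKM in control (SD, n = 3 each). *Kcnj13*, a channel of the choroid plexus epithelium, had 10.6, 9.21 and 11.1 CPM in cKO libraries, against 8.36, 10.7 and 8.61 CPM in control libraries, which overlapped (log2 fold change 0.16).

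The leak channels of the *Kcnk* family held *Kcnk10* and *Kcnk12*, whose p followed that of *Kcnj12* as the smallest of the set. *Kcnk10* encodes TREK-2, a leak channel opened by stretch, warmth and fatty acids, and lies on chromosome 12 from 98429371 to 98578142 (mm10). It had 24.5, 26.2 and 28.3 CPM in cKO libraries, against 34.7, 32.3 and 31.7 CPM in control libraries. All cKO libraries lay below all control libraries (log2 fold change -0.32, standard error 0.08, 95% interval -0.48 to -0.16, unadjusted p = 6.80e-04, adjusted p = 0.0918 from edgeR). The adjusted p of *Kcnk10* ran from 0.0453, with no filter on low counts, to 0.751 over the alternatives tried. *Kcnk12* encodes THIK-2, a channel with little current of its own, and lies on chromosome 17 from 87741596 to 87798767. It had 22.8, 22.9 and 21.2 CPM in cKO libraries, against 29.1, 24.5 and 27.1 CPM in control libraries, again without overlap (log2 fold change -0.27, standard error 0.08, unadjusted p = 0.00504, adjusted p = 0.309 from edgeR). *Kcnk2*, which encodes the related TREK-1, had a log2 fold change on the other side of 0, with 12.4, 15.5 and 15.6 CPM in cKO libraries, against 11.6, 11.6 and 14.4 CPM in control libraries, which overlapped (0.21, edgeR adjusted p = 0.823). *Kcnk13*, the other THIK gene and a channel of microglia, had a log2 fold change of -0.02.

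The acid-sensitive TASK channels belong to the chemosensory neurons of the brainstem among others. *Kcnk9* had 42.5 ± 4.92 FPKM in cKO and 40.8 ± 0.204 FPKM in control (SD, n = 3 each), with a log2 fold change of 0.08. *Kcnk3*, which forms channels with it, had 24.5, 24.4 and 22.8 CPM in cKO libraries, against 30.1, 24.8 and 25.3 CPM in control libraries. These did not overlap, by a margin of less than 1 CPM between cKO replicate 1 and control replicate 2 (log2 fold change -0.16, edgeR adjusted p = 0.791), and the log2 fold change was -0.070 without control replicate 1. *Kcnk1*, a weak leak channel and the most abundant of the family, had 43.2 ± 3.44 FPKM in cKO and 43.8 ± 2.69 FPKM in control (SD, n = 3 each).

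Of the calcium-activated channels, *Kcnn2*, whose small-conductance channel carries the afterhyperpolarization, had 36.0, 34.8 and 42.8 CPM in cKO libraries, against 33.9, 33.7 and 32.4 CPM in control libraries. All cKO libraries lay above all control libraries, with cKO replicate 3 well above the rest (log2 fold change 0.18, standard error 0.08, unadjusted p = 0.0340, adjusted p = 0.653 from edgeR). Without cKO replicate 3 it was 0.086 (unadjusted p = 0.259, adjusted p = 0.899 from edgeR). *Kcnn2* shares exon sequence with A330093E20Rik on the opposite strand, as does *Kcnk3* with Gm9899 and *Kcnmb4* with 1700058G18Rik. *Kcnn1* and *Kcnn3* had log2 fold changes of -0.03 and -0.02. *Kcnma1*, the large-conductance channel opened by both calcium and voltage, had 17.4 ± 0.794 FPKM in cKO and 18.4 ± 0.473 FPKM in control, and the sodium-activated *Kcnt1* 18.5 ± 1.49 FPKM in cKO and 19.2 ± 0.218 FPKM in control (SD, n = 3 each). *Kcnmb4*, the neuronal beta subunit of *Kcnma1*, had 3.67, 4.22 and 4.18 CPM in cKO libraries, against 6.96, 4.32 and 4.38 CPM in control libraries. The genotypes did not overlap, but control replicate 1 alone was well above the others (log2 fold change -0.37, edgeR adjusted p = 0.791), and without that library the log2 fold change was -0.11.

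**Figure D3:**
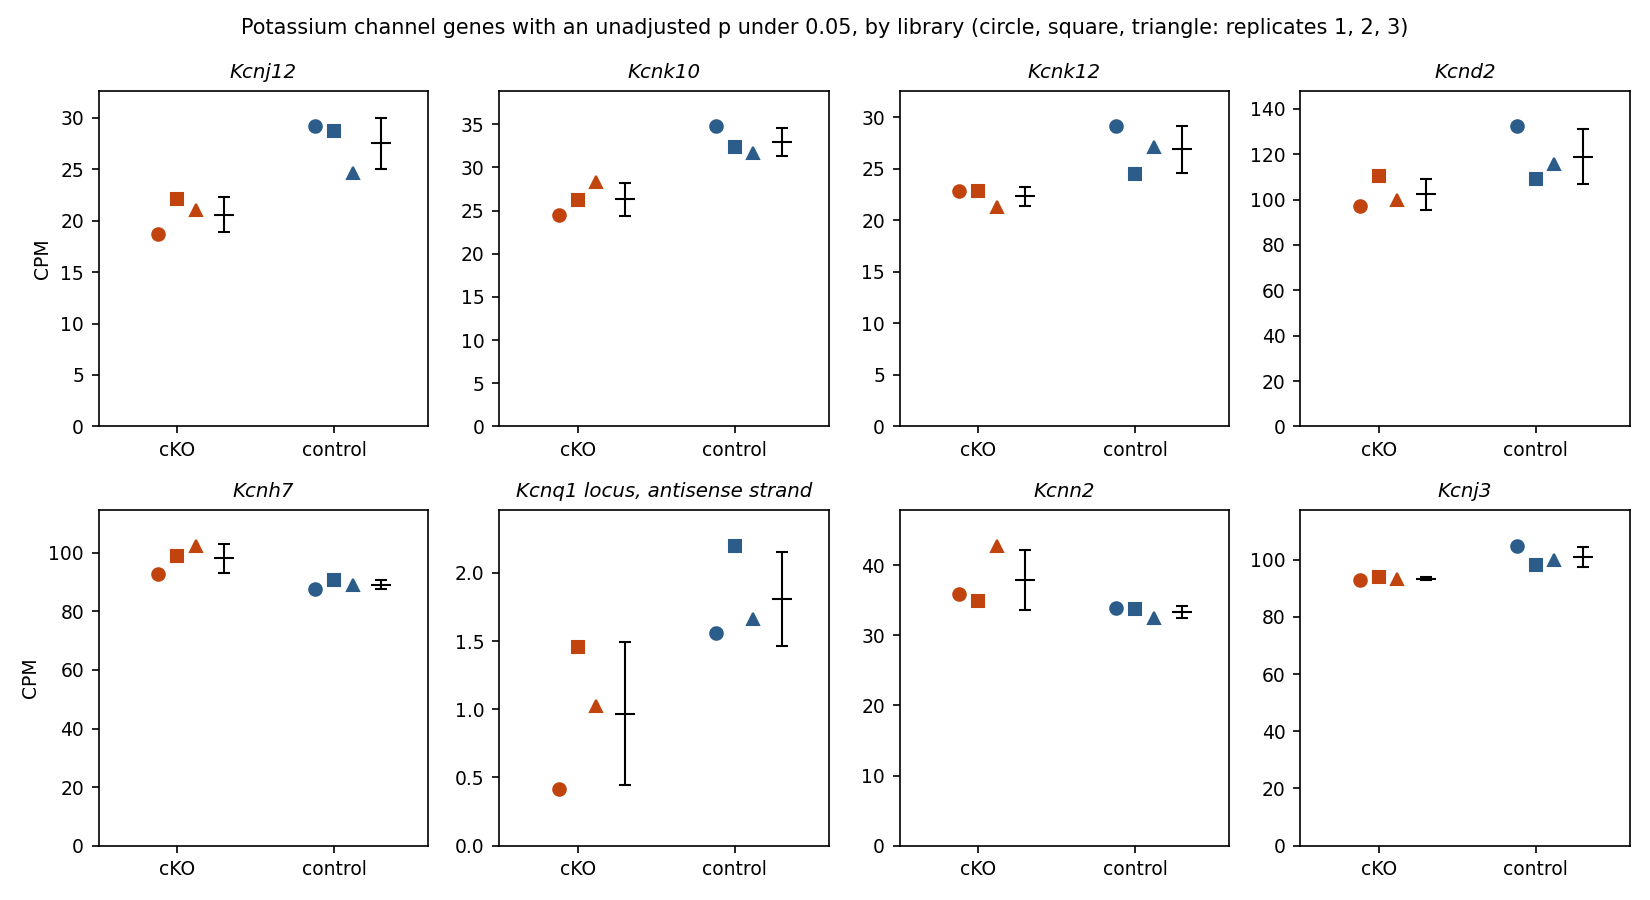
CPM of the 8 potassium channel genes with an unadjusted edgeR p under 0.05 (y axes, starting at 0), with the *Hoxa5* cKO libraries in orange left of the *Hoxa5* control libraries in blue, and the mean and SD of each genotype in black. *Kcnd2* is the only one of the 8 whose libraries overlap between genotypes, and *Kcnj12* has all cKO libraries at or below 22.1 CPM and all control libraries at or above 24.6 CPM. The locus drawn for *Kcnq1* is antisense to that gene and is not its messenger RNA.

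A further 13 genes tested all had under 5 FPKM, log2 fold changes between -0.26 and 0.27, and no unadjusted edgeR p under 0.05. The 15 genes with too few fragments to be tested were *Kcna7*, *Kcna10*, *Kcne1*, *Kcne3*, *Kcnh4*, *Kcnj1*, *Kcnj15*, *Kcnk7*, *Kcnk15*, *Kcnk16*, *Kcnk18*, *Kcnmb3*, *Kcnn4*, *Kcnv2* and *Kcnrg*. No library held more than 19 fragments of any of them. *Kcnk16*, a channel of pancreatic islets, had 0 fragments in all 6 libraries, which allows up to 3 fragments over their sum, or 0.0397 CPM. *Kcnj1*, the channel of renal salt handling, had 2 fragments in cKO replicate 1 and 0 in every other library. *Kcnh4*, an ELK channel known from the forebrain, was uneven within both genotypes, with 12, 1 and 5 fragments in cKO libraries, against 2, 19 and 7 fragments in control libraries. The *Kcnrg* locus, like that of *Kcnq1*, lies on the strand opposite to the annotated gene. These low counts limit what could be detected and do not show that the genes are silent.

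All potassium channel genes, not only those with the lowest p, were measured in libraries whose cerebellar markers also differed between genotypes. Relative to the mean of the controls, on the log2 scale, the summed granule neuron markers lay at -1.91, -1.54 and -1.80 in cKO replicates 1, 2 and 3, against 0.47, -0.15 and -0.48 in control replicates 1, 2 and 3. On the same scale *Kcnj12* lay at -0.56, -0.32 and -0.39 in cKO, against 0.08, 0.06 and -0.16 in control, and *Kcnk10* at -0.43, -0.33 and -0.22 in cKO, against 0.08, -0.03 and -0.06 in control. In the same libraries *Kcnh7* lay on the other side, at 0.06, 0.15 and 0.20 in cKO, against -0.03, 0.03 and -0.001 in control. The 3 Bergmann glia markers were all called lower by edgeR, with a summed level of 249 to 278 CPM in cKO libraries, against 311 to 357 CPM in control libraries. Most of that sum was *Slc1a3* (227 to 257 CPM in cKO libraries, against 280 to 321 CPM in control libraries). No marker of these cerebellar lists was at 0 in every library. The part of cerebellar cells in the values of these channel genes was not tested. *Kcnma1*, known from Purkinje cells and present in many other neurons, had a log2 fold change of -0.06. Its value, like those of *Kcnj12* and *Kcnk10* above, does not measure the part of cerebellar cells.

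**Figure D4:**
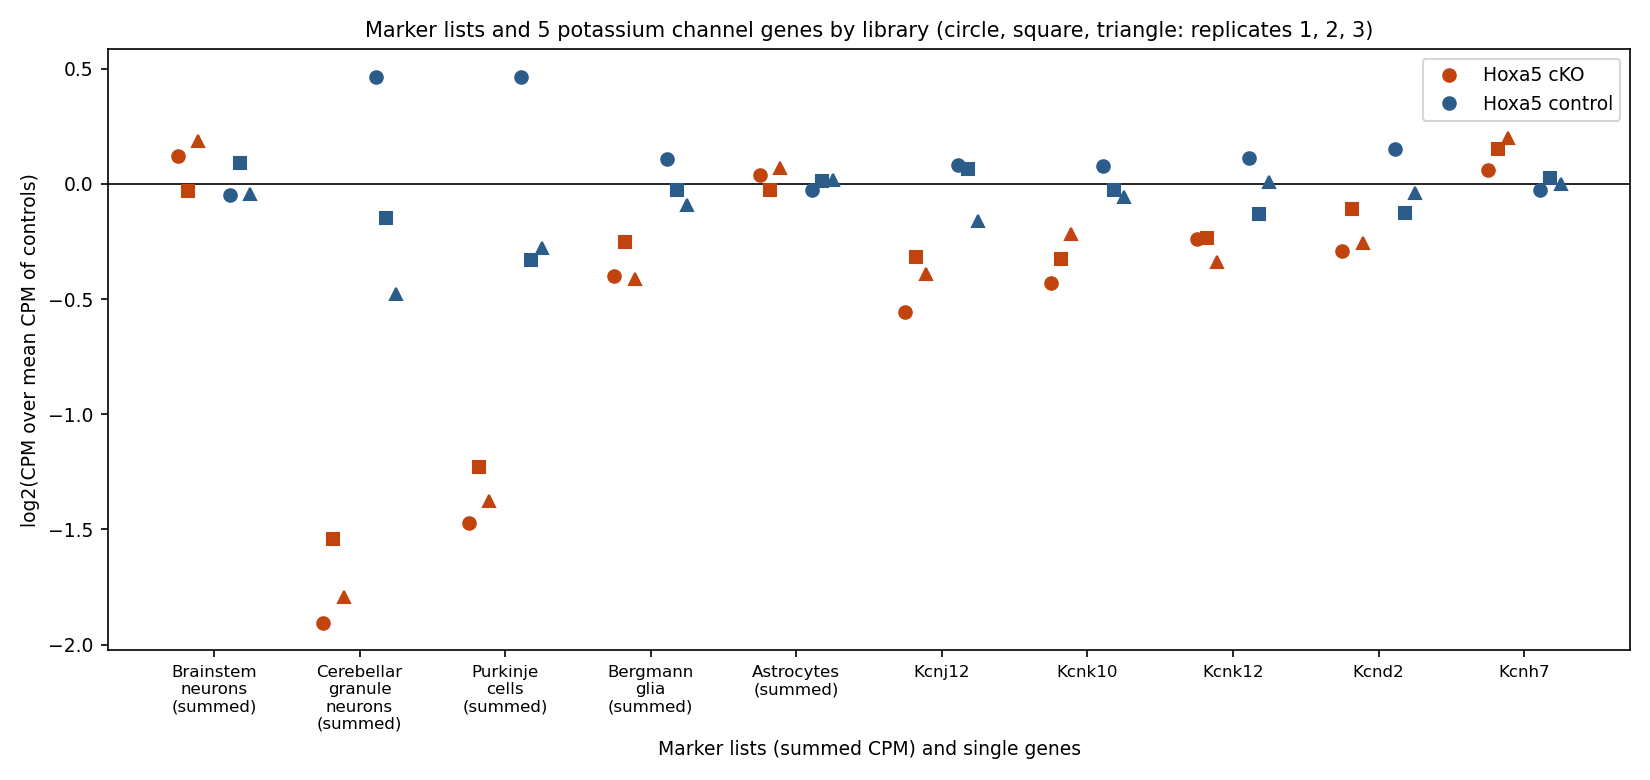
log2 of the CPM over the mean CPM of the controls (y axis) for the summed markers of 5 cell types and for 5 potassium channel genes (x axis), 1 point per library, cKO in orange left of control in blue, and shapes for the replicate numbers. Granule neuron and Purkinje cell markers lie below -1.2 in every cKO library, while *Kcnj12*, *Kcnk10*, *Kcnk12* and *Kcnd2* lie between -0.56 and -0.11 in those libraries, and summed brainstem neuron markers lie between -0.03 and 0.19 and astrocyte markers between -0.03 and 0.07 there.

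Proteins that place or tune these channels were read from a list of 32 partner genes, of which 30 were found as loci of their own and 29 were tested. None was called by edgeR, and their log2 fold changes ran between -0.14 and 0.10 with a median of 0.00. At an unadjusted edgeR p under 0.05, 1 was lower (3.45%, beside 4.03% of all loci) and 0 were higher (beside 2.91%), a share near the background. The 1 gene was *Cntn2*, the adhesion molecule that gathers Kv1 channels beside the node of Ranvier, with 299, 278 and 283 CPM in cKO libraries, against 336, 310 and 301 CPM in control libraries. The genotypes did not overlap (log2 fold change -0.14, standard error 0.05, unadjusted p = 0.0120, adjusted p = 0.474 from edgeR). *Cntnap2*, which binds *Cntn2* at the same place, lay on the other side, with 254, 266 and 276 CPM in cKO libraries, against 243, 249 and 253 CPM in control libraries (log2 fold change 0.10, edgeR adjusted p = 0.730).

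The promoters of the genes nearest to the threshold are shown because HOX proteins bind sites with a TAAT core. A window of 250 bases before to 50 bases after the annotated start was taken from RefSeq (GRCm38.p6), the build of the files, and capitals mark TAAT or its reverse complement ATTA. For *Kcnj12* the window is chr11:61065554-61065853 on the plus strand and its start coincides with an assembled transcript start within the locus. For *Kcnk10* it is chr12:98575078-98575377 on the minus strand, and for *Kcnk12* chr17:87797945-87798244 on the minus strand, and each is written 5′ to 3′ along the strand of its gene.
Kcnj12: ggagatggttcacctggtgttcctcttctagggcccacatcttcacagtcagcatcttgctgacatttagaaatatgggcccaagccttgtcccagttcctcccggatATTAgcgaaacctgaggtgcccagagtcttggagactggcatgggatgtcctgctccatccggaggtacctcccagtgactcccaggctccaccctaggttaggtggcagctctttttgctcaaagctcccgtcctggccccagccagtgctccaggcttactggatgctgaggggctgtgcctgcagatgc
Kcnk10: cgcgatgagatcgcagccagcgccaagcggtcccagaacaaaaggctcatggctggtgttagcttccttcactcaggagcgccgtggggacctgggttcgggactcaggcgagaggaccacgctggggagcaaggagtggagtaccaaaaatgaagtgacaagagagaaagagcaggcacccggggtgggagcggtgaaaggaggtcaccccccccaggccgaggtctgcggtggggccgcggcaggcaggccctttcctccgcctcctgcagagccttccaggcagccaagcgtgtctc
Kcnk12: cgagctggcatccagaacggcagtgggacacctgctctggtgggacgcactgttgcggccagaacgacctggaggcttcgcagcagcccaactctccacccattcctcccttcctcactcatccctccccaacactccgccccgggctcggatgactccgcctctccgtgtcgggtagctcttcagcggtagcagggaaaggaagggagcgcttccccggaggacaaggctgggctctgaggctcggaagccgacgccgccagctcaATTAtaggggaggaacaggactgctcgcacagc
*Kcnj12* and *Kcnk12* each held 1 match and *Kcnk10* held 0. The window of *Kcnd2*, the next gene by p, also held 0. Its start lies 763 bases from the nearest assembled start, and it is not printed. Such a window was found for 68 of the 93 genes, and 1 window per gene was kept, the one nearest to an assembled start. Of these, 27 (39.7%) held TAAT on either strand, beside 58.0% of all 32851 RefSeq windows, which were not chosen in that way. The longer motif TGATNNAT, a HOX-PBX type of site counted on both strands, was found in 2 (2.94%, beside 8.85% of all windows), and TATAAA in 3 (4.41%, beside 13.6%). The channel windows were rich in G and C, with a median of 62% against 52.7% for all windows, which bears on the frequency of motifs made of A and T. A match is a stretch of letters and no measurement of binding.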

How the data were processed

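RNA of P21 brainstems was sequenced by the authors after ribosomal RNA depletion with a stranded total RNA kit, with 3 pooled libraries per genotype. Per the labels and the paper's methods, the authors called bases with CASAVA 1.6, aligned reads to mm10 with TopHat2 2.0.9, assembled transcripts with Cufflinks 2.2.0 and quantified loci with Cuffdiff. The deposited table holds, per locus and library, fragments as whole counts and FPKM scaled between libraries by the authors. Its 2 columns of scaled fragments were not used. Replicate numbers name libraries within a genotype.

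Counts were filtered with filterByExpr, normalized by TMM and tested with edgeR 4.0.16 (quasi-likelihood, R 4.3.3) over 21854 loci, adjusted by Benjamini-Hochberg, with a threshold of 0.05. The common coefficient of biological variation was 0.0552. Intervals of 95% are the log2 fold change and its standard error with the quantile of edgeR's degrees of freedom. The pipeline was tested on simulated data. Alternatives were DESeq2 1.42.0, limma 3.58.1 on log2(FPKM + 1) and log2(FPKM + 0.1), other scalings and filters, each library left out, control replicate 3 and cKO replicate 1 left out together, the replicate number as a block, and fragments summed over all loci of a name. Samples with the same number did not deviate together.

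The potassium channel genes and all lists were chosen with earlier results of these data known. The rule for named genes took, in each subfamily, the 2 most abundant genes and at most 3 tested genes ranked by p, every called gene, genes left out by the filter, and the 10 largest fold changes without overlap between genotypes. Of the names, *Kcna6*, *Kcnmb1* and *Kcnq1* lie on more than 1 locus with a single name, and 2 loci that join a Kcn gene with another gene were left out. Of the 93 loci, 91 overlap the GENCODE gene of the name on its strand, and 11 share exon sequence with another locus. *Kcna5*, *Kcna6*, *Kcnh3*, *Kcnh8*, *Kcnip2*, *Kcnj11*, *Kcnj13*, *Kcnj16*, *Kcnj2*, *Kcnj6*, *Kcnj8*, *Kcnj9*, *Kcnk13*, *Kcnk2*, *Kcns2* and *Kcnv1* were named outside the rule, after their values were seen. Promoter windows came from RefSeq. No protein sequences were used here. A few channel genes are not reported here singly and do not appear in the figures, while counts and sums cover the whole set.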

Additional observations from a re-analysis of the deposited data

How the results depend on the processing

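Over 17 alternatives, 672 of 687 log2 fold changes of 41 named channel genes stayed on their side of the threshold and kept their sign, apart from 13 among them whose sign turned by a shift under 1 standard error. The count of called channel genes was 0 in the edgeR test reported and 1 with library size alone (*Kcnj12*, log2 fold change -0.42, adjusted p = 0.0403), 2 with no filter on low counts (*Kcnj12* at adjusted p = 0.0104 and *Kcnk10* at 0.0453), 1 without control replicate 3 and cKO replicate 1 together (*Kcnj12*, -0.43, adjusted p = 0.0394), and 0 to 1 with 1 library left out. Without filter 30931 loci were tested, without control replicate 3 *Kcnj12* had an adjusted p of 0.0245, and the causes were not tested. The numbers do not pair the libraries, since deviations of same-numbered libraries had correlations of 0.03, -0.08 and 0.05; with the replicate block 1 channel gene was called (*Kcnj12*, adjusted p = 0.0481), and 130 loci in all against 116 without it. The median log2 fold change ran from -0.021 to 0.030 with 1 library left out, and 0.030 was reached without cKO replicate 1. For the *Hoxa5* locus the log2 fold change ran from -1.82 to -0.047 with 1 library left out. The locus was called without cKO replicate 1 (edgeR adjusted p = 0.0318). With control replicate 3 left out as well, its log2 fold change was -2.23 (edgeR adjusted p = 5.88e-06). These are the 2 libraries in which this locus goes against its label, so neither p is a test of the labels. Signs turned by a larger shift for 9 values, none of them called. *Kcnn3* ran from -0.071 to 0.081 and *Kcnt1* from -0.14 to 0.015 with 1 library left out, both turning without cKO replicate 1. *Kcnc2* ran from -0.0088 (without cKO replicate 2) to 0.11, *Kcnn1* from -0.12 to 0.10 (without control replicate 1) and *Kcnab2* from -0.013 (without control replicate 3) to 0.086. With both libraries left out *Kcnab2* was at -0.022, *Kcnd3* at 0.070, *Kcnn3* at 0.12 and *Kcnt1* at 0.012. The number of all loci called was 221 without filter, 76 with at least 50 fragments in 3 libraries, 44 to 126 with 1 library left out and 0 to 1 with limma. Standard errors of 0.25 for genes under 1 FPKM limit what the depth can show.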

Other observations

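Loci outside the set joined a name beginning with Kcn to that of another gene, and 1 of these names, *Kcnrg*, also has a locus in the set. The locus that joins *Kcnk4*, a leak channel opened by stretch, with 1700019N12Rik had 56, 53 and 48 fragments in cKO libraries, against 67, 51 and 58 fragments in control libraries, which overlapped. The locus that joins *Kcnrg* with *Trim13* had 225, 222 and 210 fragments in cKO libraries, against 247, 215 and 263 fragments in control libraries, which also overlapped. Neither fragment count can be assigned to 1 of the joined genes.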
